A study of Mus musculus with 42 samples.

Results

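The genes described here encode the chemokines and the chemokine receptors. They were chosen by symbol alone: every CC or CXC ligand or receptor with a number, Cx3cl1, Cx3cr1, Xcl1, Xcr1 and Darc. Of the 21674 genes read, 58 have such a symbol, and 44 of these reached a mean of 1 CPM, counts scaled to the library total, in at least 1 of 23 groups of libraries. The 44 are 27 ligands (16 of the CC class, 10 of the CXC class and Cx3cl1), 15 signalling receptors, and the scavenger receptors Cxcr7 and Darc. The other 14 stayed below that level everywhere: Ccl1, Ccl20, Ccl26, Ccr6, Ccr10, Cxcl11, Cxcl14, Cxcl17, Cxcr1, Cxcr5, Xcl1 and the near-identical copies Ccl21a, Ccl21b and Ccl21c, whose reads cannot be told apart by sequence.

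Chemokines are small secreted proteins that guide leukocytes by binding G protein-coupled receptors on their surface. In an inflamed artery they are displayed on the endothelium, where they stop rolling leukocytes and direct them into the wall. Members of the CC class mainly attract monocytes, lymphocytes and eosinophils, those CXC ligands that bind Cxcr2 attract neutrophils, and Cx3cl1 is anchored in the endothelial membrane. Scavenger receptors bind chemokines without classical G protein signalling and remove or hold them. Most ligand genes sit in clusters: 11 of the 27 ligands are on chromosome 11 and 9 on chromosome 5, and 11 of the 15 receptors are on chromosome 9.

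RNA was measured by RNA-seq in 42 libraries, 35 of carotid intima and 7 of cultured aortic endothelial cells. In the intimal libraries the inner layer of 3 to 5 arteries was flushed out with Trizol and pooled. Branches of the left carotid artery had been tied off, which leaves low and disturbed flow in it, and the contralateral artery carried high flow. Male C57BL/6J mice of 6 to 7 weeks gave 3 untreated pools each of low flow (A, B and C), high flow (D, E and F) and sham-operated arteries (G, H and I) at 48 hr. Treated mice of the same strain, sex and age range gave 2 pools of each kind, all at 48 hr. Low-flow pools were taken after non-specific IgG, platelet-depleting anti-GPIba, granulocyte-depleting anti-Gr1, PBS liposomes or clodronate liposomes, which deplete phagocytes. High-flow pools were taken after IgG or PBS liposomes. An additional pair of single low-flow libraries of such mice, with PBS and with clodronate liposomes, was read at 100 bp. At 7 d, Rbfox2 lox/lox; Rosa26-mTmG mice of 2 to 7 months on a C57 background, with Cdh5(PAC)-CreERT2 (Rbfox2 EC-KO) or without it (control), gave 3 low-flow and 2 high-flow pools of each genotype. These mice were males and females. Cdh5(PAC)-CreERT2 is active in endothelium, so other cells of the EC-KO arteries keep Rbfox2. The cultures, with 1 library each and no flow, were a TetOn-SV40 line and primary aortic endothelial cells. The line was made from sorted aortic endothelial cells of mice with Cdh5(PAC)-CreERT2 and Rosa26-mTmG. It was untreated or held for 48 hr with 10% plasma, with platelets and macrophages (bone marrow monocytes), or with all of these. The primary cells were eGFP+ cells of mice with these alleles (culture day 5) or cells from Rbfox2 EC-KO or control mice (culture day 7).

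Library totals ran from 4064477 to 6794904 counts in the untreated pools, 12286104 to 19035957 in the treated pools, 10318685 to 18633538 at 7 d and 9598893 to 16394043 in the cultures. Levels are given as FPKM, which is per effective length and library total, and fold changes and p-values come from edgeR's quasi-likelihood test with TMM scaling, so a ratio of FPKM and a fold change can differ. A gene is said to be called, or not called, by the adjusted p of this test unless DESeq2 is named. FPKM were not compared between the untreated 100 bp libraries and the 150 bp libraries. In the headers, all treated low-flow pools carry another sequencing run than all treated high-flow pools, so for IgG and PBS liposomes flow and run cannot be told apart. Rbfox2 stood at 3.27, 5.73 and 2.74 FPKM in the low-flow controls and 1.09, 0.169 and 0.622 in the low-flow EC-KO pools, and at 3.66 and 3.84 against 0.791 and 1.05 with high flow. The 11 endothelial markers summed to 1271 to 1700.1 FPKM in the low-flow and 2433 to 3046 in the high-flow untreated pools. In the untreated cell line, read at 150 bp, they summed to 118.

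Low flow at 48 hr was accompanied by higher mRNA of most chemokines and receptors that could be tested. In untreated arteries 23 of the 44 members passed the filter on low counts. Of these, 15 were higher and 2 lower with low than with high flow at an adjusted p under 0.05, where 23.6% of all 11236 genes tested were higher and 22.6% lower. The median log2 fold change was 2.21 over the members tested and -0.07 over all genes. The filter keeps a gene that is high in 1 group only, so the members that passed are those with reads. The higher members included the ligands Ccl2, Ccl5, Ccl6, Ccl7, Ccl9, Cx3cl1, Cxcl12, Cxcl16, Cxcl2 and Cxcl5, and the receptors Ccr1, Ccr2, Cx3cr1 and Cxcr2, and the lower ones were Cxcr7 and Ccl27a. Without any 1 of the 6 pools, 16 of the 17 calls remained, and Ccl27a was lost without pool A (adjusted p = 0.0964), D (0.0669) or F (0.0856). DESeq2, without that filter, called 25 members (27.4% of all genes), among them Ccl3, Ccl4, Ccl12, Ccr3, Cxcl3, Cxcl10, Cxcr3 and Cxcr4 as higher and Cxcl13 as lower, which edgeR did not test here. Scaled by library totals alone, the median gene fell by 0.69, and 12 members were higher and 3 lower, with the share of all genes not given here. Low-flow pools A and B held 22.8% and 23.5% of their counts in their top 10 genes. Pool C held 10.4%, and the high-flow and sham pools 9.27% to 10.6%.

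Macrophage and neutrophil genes moved with these members. The 12 macrophage markers summed to 2005 to 3446 FPKM with low flow, 60.9 to 136 with high flow and 176 to 580.0 in sham arteries, of which Lyz2 holds most, and 9 of the 11 tested rose against high flow. The 9 neutrophil markers of the table summed to 494 to 1192 FPKM with low flow, 18.5 to 40.0 with high flow and 26.9 to 86.1 in sham arteries, and all 6 tested rose, while Camp was at 0 in pools A and B. In such bulk RNA, more cells of a type and more RNA per cell cannot be told apart. The part of these cells in each result was not tested. Fat cell markers summed to 0.689 to 1.14 FPKM with low and 39.6 to 678 with high flow.

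Against sham arteries fewer members were called in the same low-flow pools. There, 10 of 24 members tested were higher (20.6% of all genes) and 4 lower (19.7%), with a median of 1.03 against -0.04 over all genes. The higher ones included Ccl5, Ccr1, Ccr2, Cx3cr1, Cxcl12, Cxcl16, Cxcl2, Cxcl5 and Cxcr2, and lower were Ccl11, Cxcl10, Cxcl9 and Cxcr7. Only 7 of the 14 calls remained when each pool was left out in turn, among them Ccr1, Ccr2, Cx3cr1, Cxcl12, Cxcr2 and Cxcr7. The count was 8 without pool A, 9 without B, G or H, 11 without C and 17 without I. With library totals alone, where the median gene fell by 0.71, 6 members were higher and 8 lower, with the share of all genes not given here.

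Between high flow and sham, 0 of 20 members tested were called by edgeR's quasi-likelihood test, nor was any other gene (0% of 11030). At an unadjusted p under 0.05, 12 members were lower and none higher (7.87% of all genes had such a p), and DESeq2 called 3 (0.558% of all genes; Ccl7, Ccl9 and Cxcl10, all lower). Sham pool I, with the most macrophage marker RNA of the sham pools, also had the most Ccl2, Ccl6, Ccl7 and Ccl9 of them. Without pool H, Cx3cl1 and Cxcl10 were called, both lower with high flow.

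In treated mice, the flow comparison was made on 38 members. After IgG, 22 were higher with low flow (22.8% of all 13401 genes) and 1 lower (17.7%), and after PBS liposomes 21 were higher (19.6%) and 1 lower (15.5%). The medians over the members tested were 3.52 and 3.44, against 0.07 and 0.06 over all genes. In both, Cxcr7 was the member that was lower. Summed macrophage markers came to 2046 to 2242 FPKM with low and 85.9 to 278 with high flow after IgG and to 1292 to 2192 and 118 to 203 after PBS liposomes. Smooth muscle markers summed to 2669 to 2853 and 263 to 408 after IgG and to 1829 to 3619 and 258 to 514 after PBS liposomes, and neutrophil markers to 121 to 417 and 5.69 to 67 and to 173 to 479 and 6.9 to 18.1. Their part was not tested. After IgG, 18 of 23 calls remained when each pool was left out in turn. After PBS liposomes only 6 of 22 did (Ccl2, Ccl6, Ccl9, Ccr1, Cxcr2 and Cxcr7): 8 members were called without high-flow pool 1 and 14 without low-flow pool 2.

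At 7 d, 37 members were tested. In controls, 3 were higher with low flow (0.959% of 13352 genes) and 1 lower (1.44%), with a median of 3.25 over the members and 0.04 over all genes. The calls were Cx3cr1, Cxcl10 and Cxcl12, higher, and Cxcr7, lower, and all 4 were lost in a fit of only the groups compared (adjusted p = 0.198 for Cxcl10 and 0.216 for the others). In EC-KO mice 4 were higher (Cx3cl1, Cx3cr1, Cxcl12 and Cxcl16; 0.352% of all genes) and none lower (0.741%), with medians of 2.30 and 0.01. At 7 d, macrophage markers summed to 269.7 to 1272 FPKM with low and 72.2 to 129.7 with high flow in controls and to 526 to 1179.9 and 83.9 to 92.1 in EC-KO mice, and smooth muscle markers to 720.5 to 1081 and 149.8 to 191 and to 638 to 1023 and 136 to 159, and their part was not tested. With the sequencing run as a block, chosen after seeing the data, 12 members were called in controls and 6 in EC-KO mice (16.7% and 3.98% of all genes). A block by replicate number, planned beforehand, also raised the calls in both genotypes (22% and 9.86% of all genes), with counts given at the end. The 4 calls in each genotype without a block rest on few pools, and no pool was left out under a block. Leaving out low-flow control 1 gave 14 calls, and leaving out low-flow control 4 or 5 gave 0. In EC-KO mice the count was 1 without low-flow pool 4 and 0 without low-flow pool 1 or 5. Without a high-flow pool, 1 library is left in that group.

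**Figure D1:**
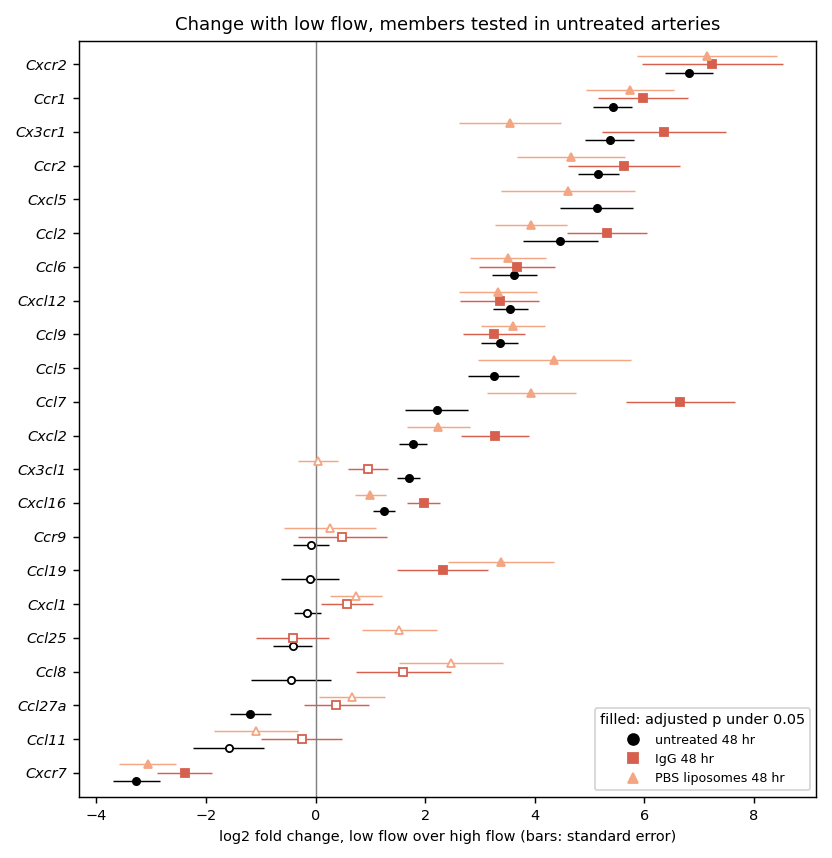
Log2 fold changes, low over high flow, of members tested in untreated arteries (black circles), with the values after IgG (squares) and PBS liposomes (triangles) at 48 hr. Bars are standard errors and filled symbols have an adjusted p under 0.05; changes against a group with no reads are left out. Cxcr2 is at the top with 6.82 in untreated arteries and Cxcr7 at the bottom with -3.27, and Cxcl1 lies near 0.

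The highest member in untreated arteries with low flow was Cxcl12, which binds Cxcr4 and Cxcr7 and holds stem cells and leukocytes in tissues, and the highest with high flow was Cxcr7, which takes Cxcl12 up and degrades it. Low flow had more Cxcl12 and less Cxcr7 than high flow, without overlap, in each of the 5 flow comparisons. Cxcl12 (chr6:117118553-117131385 on mm9) was at 243, 314 and 419.8 FPKM in the low-flow pools A, B and C. It was at 36, 60.2 and 39.9 in the high-flow pools D, E and F and at 89.2, 61.7 and 105 in the sham pools G, H and I. The groups did not overlap, and low flow was 11.7-fold above high flow (log2 fold change 3.55, SE 0.32, adjusted p = 1.23e-05) and 6.36-fold above sham (log2 fold change 2.67, SE 0.32, adjusted p = 0.00137). Smooth muscle markers, whose cells also express Cxcl12, summed to 1444 to 2698 FPKM with low flow, 316 to 379 with high flow and 261 to 1014 in sham arteries, and their part was not tested. Cxcl12 held 37.4% of the summed FPKM of the members with low flow and 7.61% with high flow.

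Cxcr7 (chr1:92100555-92113326 on mm9) was at 13.8, 7.67 and 57.7 FPKM with low flow. With high flow it was at 337, 367 and 305 and in sham arteries at 288, 318 and 218. Every low-flow pool lay below every other pool, by 9.63-fold against high flow (log2 fold change -3.27, SE 0.43, adjusted p = 0.000156) and 7.65-fold against sham (log2 fold change -2.93, SE 0.45, adjusted p = 0.00241). Cxcr7 held 56.4% of the summed FPKM of the members with high flow. The endothelial marker sum, scaled by library totals, was also lower with low flow, as given above. With TMM scaling, 2 of the 11 endothelial markers were higher and 4 lower than with high flow (23.6% and 22.6% of all genes). Their median log2 fold change was -0.31, and their part was not tested. Cxcr4, the signalling receptor, was low throughout: 1.41, 1.21 and 0.42 FPKM with low flow, 0, 0.197 and 0.132 with high flow and 0, 0.295 and 0.123 in sham arteries, and it did not pass the filter there.

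The same opposite shift was seen in treated arteries. Cxcl12 stood at 433 and 459 FPKM with low flow and 34.9 and 46.8 with high flow after IgG (log2 fold change 3.36, SE 0.72, adjusted p = 0.00481). After PBS liposomes it stood at 778 and 408 against 51 and 76.5 (log2 fold change 3.33, SE 0.71, adjusted p = 0.00526; 0.0634 without high-flow pool 1). Cxcr7 was at 86.3 and 43.9 against 295 and 346 after IgG (log2 fold change -2.39, SE 0.50, adjusted p = 0.00455; 0.0526 without low-flow pool 2). It was at 48.6 and 33.5 against 357 and 382 after PBS liposomes (log2 fold change -3.06, SE 0.52, adjusted p = 0.00177), and in neither case did the groups overlap. Cxcr4 was at 1.49 and 1.45 against 0 and 0.044 after IgG, and at 0.747 and 2.22 against 0.216 and 0 after PBS liposomes, and was called as higher with low flow in both (0.0432 to 0.258 without 1 pool).

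Platelet depletion left Cxcl12 at 104 and 107 FPKM, below both IgG pools, but the change was not called (log2 fold change -2.11, SE 0.68, adjusted p = 0.0536; 0.00441 with DESeq2). Smooth muscle markers summed to 422 to 596 FPKM there against 2669 to 2853 after IgG. Cxcr7 was at 162 and 176 after anti-GPIba, above both IgG pools, and was not called either (log2 fold change 1.35, SE 0.49, adjusted p = 0.0718; 0.0219 with DESeq2). Anti-Gr1 gave 168 and 537 for Cxcl12 and 177 and 73.7 for Cxcr7, and clodronate gave 135 and 612 for Cxcl12 and 256 and 91.4 for Cxcr7. After clodronate Cxcr7 lay above both PBS pools (log2 fold change 1.96, SE 0.50, adjusted p = 0.149), while the 2 pools of Cxcl12 were far apart. Cxcr4 was at 0.102 and 0 after anti-GPIba, at 0.509 and 0.608 after anti-Gr1 and at 0.2 and 0.124 after clodronate. Its 3 reads after anti-GPIba against 87 after IgG are a ratio of 29.2 (95% interval 9.66 to 144) in counting error, and the change was called at an adjusted p of 0.0409 (0.0898 to 0.214 with any 1 of the 4 pools left out).

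At 7 d Cxcl12 was at 236, 427 and 760.3 FPKM in the low-flow controls 1, 4 and 5 and at 40.7 and 51.3 in the high-flow controls (log2 fold change 3.29, SE 0.57, adjusted p = 0.027). In EC-KO mice it was at 232, 176 and 383 against 22.5 and 39.4 (log2 fold change 3.06, SE 0.56, adjusted p = 0.0379). The adjusted p was 0.0522 to 0.274 without any 1 of low-flow control 4 or 5 or the high-flow controls, and 0.0867 to 0.37 without any 1 pool of the EC-KO mice. Cxcr7 was at 109.7, 21.2 and 39.6 in low-flow and 329 and 348 in high-flow controls (log2 fold change -2.68, SE 0.53, adjusted p = 0.0397; 0.0533 to 0.277 in the same omissions), and at 85.6, 51.3 and 76.9 against 279 and 312 in EC-KO mice (log2 fold change -2.07, SE 0.53, adjusted p = 0.102). Low and high flow did not overlap for either gene in either genotype, and DESeq2 called both genes in both genotypes. Cxcr4 was at 1.55, 3.48 and 0.174 against 0.285 and 0 in controls and 0.707, 3.16 and 0.734 against 2.8 and 0.4 in EC-KO mice, with overlap.

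**Figure D2:**
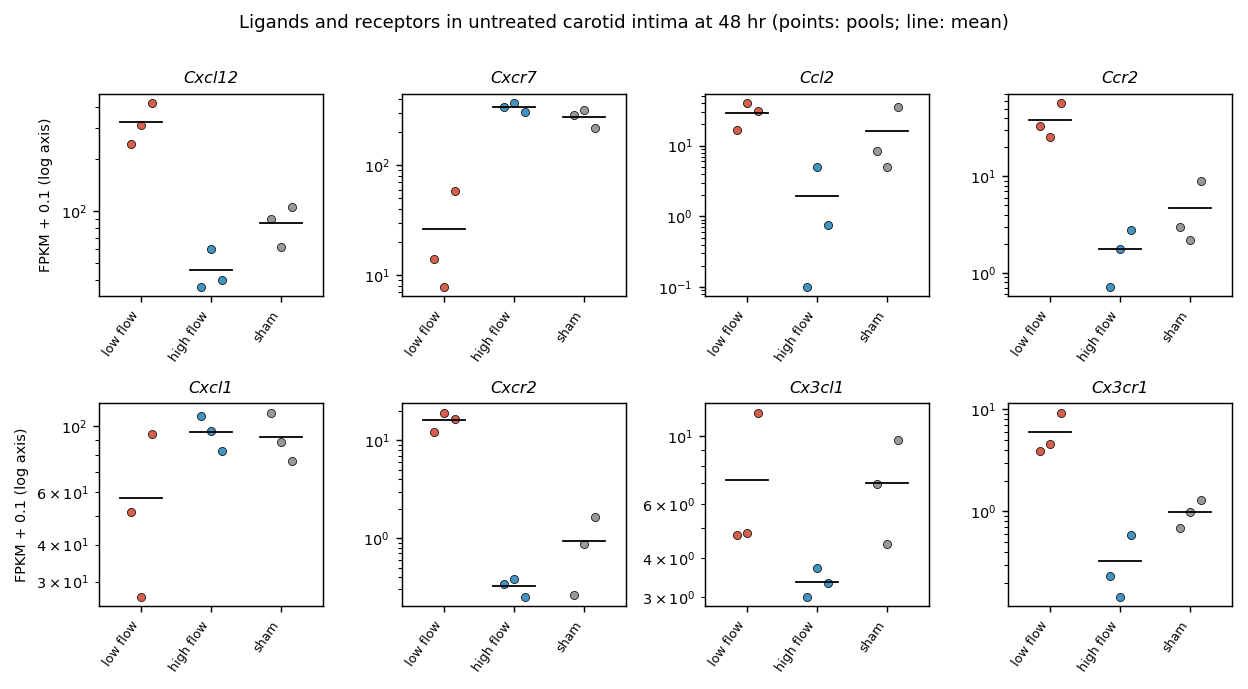
FPKM, with 0.1 added, on a log axis, of 4 ligands and 4 receptors in the untreated pools at 48 hr; points are pools and lines are means. Cxcl12 and Cxcr7 shift in opposite directions with low flow, while Cxcl1 overlaps between groups and its receptor Cxcr2 is high in all 3 low-flow pools.

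Among the CC ligands, Ccl2, Ccl5, Ccl6, Ccl7 and Ccl9 were higher with low than with high flow in untreated arteries, and of these Ccl5 alone was also called against sham, with overlap. That call was lost without pool A (adjusted p = 0.0657), C (0.0707) or G (0.0863) and with library totals alone (0.409). Ccl2, the main ligand of Ccr2 and the signal that draws monocytes out of blood, was at 16.7, 39.8 and 30.7 FPKM with low flow, 0, 4.96 and 0.666 with high flow and 8.23, 4.83 and 35.6 in sham arteries. Low flow lay above high flow without overlap (log2 fold change 4.47, SE 0.68, adjusted p = 0.000401), but sham pool I reached into the range of the low-flow pools (adjusted p = 0.0909 against sham). Ccl7, a second ligand of Ccr2 beside Ccl2 (chr11:81859214-81861027 and chr11:81849073-81850955 on mm9), was at 5.41, 2.76 and 13.2 with low flow, 0.359, 4.52 and 1.35 with high flow and 11.6, 4.9 and 32.6 in sham arteries. The rise over high flow was called (log2 fold change 2.21, SE 0.57, adjusted p = 0.0093) although high-flow pool E lay above low-flow pool B, and sham pool I was the highest of all.

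Ccl6 and Ccl9 are ligands of Ccr1 that myeloid cells make in mice, and Ccl6 had the highest level of the CC class with low flow. Ccl6 was at 92.9, 163 and 322 FPKM with low flow, 9.63, 32.4 and 28 with high flow and 59.3, 56.4 and 227 in sham arteries. Ccl9 was at 8.33, 11.1 and 36 with low flow, 1.48, 3.15 and 2.85 with high flow and 5.05, 6.44 and 20.5 in sham arteries. Both were higher with low than high flow without overlap (Ccl6 12.4-fold, log2 fold change 3.63, SE 0.41, adjusted p = 5.71e-05; Ccl9 10.3-fold, log2 fold change 3.36, SE 0.34, adjusted p = 2.33e-05), and against sham edgeR called neither (adjusted p = 0.075 and 0.0734) and DESeq2 both. Ccl5, a ligand of Ccr1 and Ccr3 that T cells, platelets and other cells make, was at 12.2, 8.72 and 29.4 with low flow, 3.64, 3.39 and 0.569 with high flow and 6.73, 16.5 and 9.52 in sham arteries (log2 fold change 3.25, SE 0.46, adjusted p = 0.00026 against high flow). Ccl4, a ligand of monocytes and T cells, was at 3.71, 1.74 and 7.14 with low flow, 0.455, 0.954 and 0 with high flow and 1.38, 0.953 and 1.98 in sham arteries and did not pass the filter there.

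Their receptors rose as well. Ccr2, which marks inflammatory monocytes, was at 32.6, 25.3 and 56.8 FPKM with low flow, 0.613, 1.67 and 2.69 with high flow and 2.89, 2.07 and 8.85 in sham arteries. Ccr1, found on monocytes, macrophages and neutrophils, was at 25.6, 29.8 and 33.8 with low flow, 1.49, 0.611 and 1.48 with high flow and 2.21, 2.38 and 7.01 in sham arteries. No low-flow pool overlapped with any other pool in either gene. Against high flow the folds were 35.7 for Ccr2 (log2 fold change 5.16, SE 0.37, adjusted p = 3.16e-06) and 42.7 for Ccr1 (log2 fold change 5.42, SE 0.35, adjusted p = 2.13e-06). Against sham they were 13 and 12.9, with adjusted p of 0.00173 and 0.00146.

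In treated arteries Ccl2 was at 24.7 and 11.3 FPKM with low and 0.615 and 0.222 with high flow after IgG, and at 22.7 and 15.4 against 0.654 and 2.04 after PBS liposomes. Ccl7 was at 26.6 and 13.8 against 0 and 0.337 after IgG, and at 17.3 and 7.82 against 0.332 and 1.41 after PBS liposomes. Each flow group stood apart from the other for both genes, with log2 fold changes of 5.32 and 3.93 for Ccl2. Ccl6 was at 206 and 204 against 4.35 and 25.5 after IgG and at 186 and 186 against 18 and 17.1 after PBS liposomes, and Ccl9 at 39.1 and 36.4 against 1.39 and 5.93 after IgG and at 31.6 and 25.4 against 2.19 and 2.88 after PBS liposomes. Ccl5 was at 7.36 and 2.31 against 0 and 0 after IgG and at 1.23 and 3.04 against 0.186 and 0 after PBS liposomes. Ccl4 was at 5.88 and 4.07 against 0 and 0.142 after IgG, called as higher, and at 2.3 and 6.63 against 0.14 and 1.51 after PBS liposomes, where the groups did not overlap and the change was not called (adjusted p = 0.112).

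Ccr2 was at 47.2 and 37.5 FPKM with low and 0 and 1.56 with high flow after IgG, and at 14.7 and 24.3 against 0.608 and 1.05 after PBS liposomes. Ccr1 was at 32.9 and 18.1 against 0.666 and 0.109 after IgG, and at 11.3 and 30.4 against 0.672 and 0.159 after PBS liposomes. No high-flow pool of these receptors exceeded 1.56 FPKM and no low-flow pool overlapped with one, with log2 fold changes from 4.66 (Ccr2, PBS liposomes) to 5.97 (Ccr1, IgG).

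The IgG low-flow pools are shared by the flow, anti-GPIba and anti-Gr1 comparisons. Among 38 members tested, none was higher after anti-GPIba than after IgG (6.05% of all genes were higher) and 13 were lower (10.5%), with a median of -2.08 against -0.04 over all genes. The 13 included Ccl2, Ccl3, Ccl4, Ccl6, Ccl7, Ccl9, Cxcl3, Ccr1, Ccr2, Ccr3, Cxcr2 and Cxcr4. DESeq2 called 19 members (22% of all genes), among them Cxcr7 and Ccl11, whose anti-GPIba pools lay above both IgG pools. None of the 13 calls remained when each pool was left out in turn: 1 and 4 members were called without IgG pool 1 and 2, and 0 without either anti-GPIba pool, which leaves 1 library in that group. Macrophage markers summed to 172 to 278 FPKM after anti-GPIba and 2046 to 2242 after IgG, and neutrophil markers to 8.68 to 19.6 against 121 to 417; 7 of 12 and 5 of 9 of these markers fell. Platelet marker mRNA was low in all artery libraries, 4.04 to 25.5 FPKM in sum, and does not report how far platelets were depleted.

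After anti-GPIba, Ccr2 was at 2.17 and 1.11 FPKM (26.3-fold lower, log2 fold change -4.72, SE 0.96, adjusted p = 0.0211) and Ccr1 at 0.717 and 0.824 (33.5-fold lower, log2 fold change -5.07, SE 0.76, adjusted p = 0.0115). Without 1 pool the adjusted p ran from 0.0237 to 0.135 over both genes. Ccl2 was at 1.71 and 1.67 (log2 fold change -3.43, SE 0.63, adjusted p = 0.0173), Ccl7 at 1.47 and 3.3 (log2 fold change -3.10, SE 0.75, adjusted p = 0.0298) and Ccl4 at 0 and 0.429 (log2 fold change -4.45, SE 1.30, adjusted p = 0.0416). Ccl6 was at 24.7 and 59.8 (log2 fold change -2.31, SE 0.65, adjusted p = 0.038) and Ccl9 at 3.52 and 6.45 (log2 fold change -2.95, SE 0.56, adjusted p = 0.0186). In every one of these genes both anti-GPIba pools lay below both IgG pools, and for these 5 ligands the adjusted p ran from 0.0375 to 0.217 with a pool left out. Ccl5 was at 1.17 and 1.14, also below both IgG pools, and was not called.

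After anti-Gr1 no member was called in edgeR's test (0 of 38, and 0% of all genes), where 4 members reached an unadjusted p under 0.05, as did 18.1% of all genes. By DESeq2 Cxcr2 alone was called (0.852% of all genes). Ccl2 was at 27.5 and 14.2 FPKM, Ccl7 at 20.6 and 21.3, Ccl6 at 133 and 214 and Ccl9 at 23.2 and 32 after anti-Gr1. Ccl5 was at 3.51 and 2.62 and Ccl4 at 3.4 and 3.81. Both pools of Ccl9 and of Ccl4 lay below both IgG pools, and the others overlapped with them. Ccr2 was at 24.4 and 21.5 and Ccr1 at 8.71 and 6.14; both pools of Ccr2 and of Ccr1 were below both IgG pools, by 1.83-fold and 3.4-fold (unadjusted p = 0.309 and 0.0191, edgeR's quasi-likelihood test). Macrophage markers summed to 886 to 1158 FPKM there and neutrophil markers to 23.3 to 47.6.

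The PBS low-flow pools likewise serve both the flow and the clodronate comparison. After clodronate no member was called either (0 of 38; 0.119% of all genes were), although 15 members had an unadjusted p under 0.05 in edgeR's test, 13 of them lower and 2 higher, as had 14.9% of all genes. DESeq2 called 5 (2.8% of all genes): Ccl6, Ccl9, Ccr1, Cx3cr1 and Cxcr7. Ccr2 was at 1.36 and 1.7 FPKM after clodronate and Ccr1 at 2.51 and 2.31, 13.7-fold and 9.24-fold below PBS liposomes without overlap (adjusted p = 0.14 and 0.106). Ccl6 was at 31.3 and 47.8 and Ccl9 at 5.61 and 7.93, each below both PBS pools (adjusted p = 0.189 and 0.144). Ccl2 was at 6.87 and 9.49, Ccl7 at 5.84 and 5.39, Ccl5 at 3.11 and 0.713 and Ccl4 at 0.389 and 0.669. Macrophage markers summed to 233 to 240.3 FPKM after clodronate and 1292 to 2192 after PBS liposomes, and neutrophil markers to 56.3 to 70.2 against 173 to 479. Without clodronate pool 2, Cx3cr1 (adjusted p = 0.0485) and Cxcr7 (0.0317) were called.

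Values of the single 100 bp libraries stand beside these. Ccr2 was at 23 FPKM with PBS and 1.7 with clodronate liposomes, Ccr1 at 27.4 and 2.44, and Ccl6 at 201 and 77.9. Ccl2 was at 48.7 and 44.4, and Cxcl12 at 435 and 374. The receptors and Ccl6 were lower with clodronate there and Ccl2 and Cxcl12 within 1.5-fold, with no replicate check. Cxcr2 was at 17.3 and 0.996, Cx3cr1 at 5.85 and 0.244 and Cxcr4 at 1.72 and 0.262 in the same order, so these receptors were also lower with clodronate. Cxcr7 was at 28.6 and 84.7, Cxcl1 at 115 and 155, Cxcl10 at 5.06 and 8.19 and Cx3cl1 at 12.7 and 16.5, each higher with clodronate. Of the CC ligands, Ccl4 was at 12.3 and 2.71, Ccl5 at 21.2 and 14.9, Ccl7 at 28.3 and 28.9 and Ccl9 at 17.5 and 6.17. Ccl11 was at 1.81 and 4.43, Ccl19 at 7.04 and 8.96 and Ccl27a at 7.61 and 13.4. Of the CXC ligands, Cxcl2 was at 24.1 and 12.8, Cxcl3 at 7.63 and 0.403, Cxcl5 at 3.93 and 5.73, Cxcl9 at 0.717 and 0.158 and Cxcl16 at 54.2 and 56.1, and Darc was at 0.585 and 0.777.

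**Figure D3:**
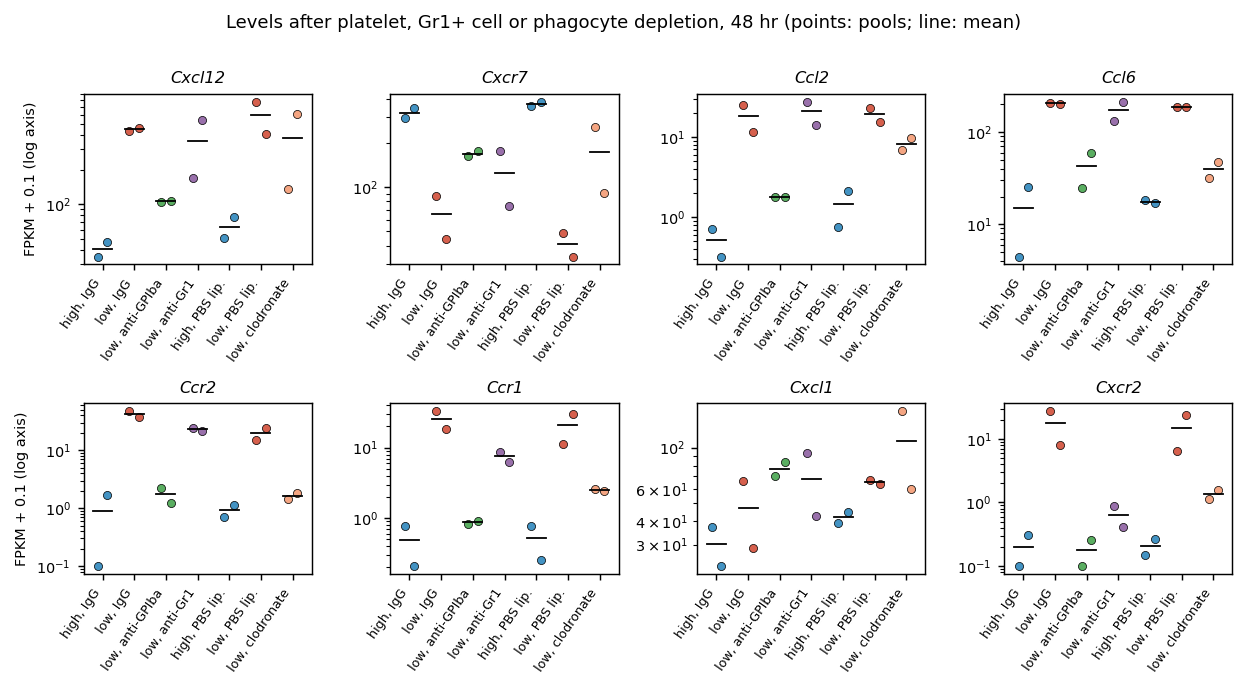
FPKM, with 0.1 added, on a log axis, of 8 members in treated arteries at 48 hr; points are the 2 pools of a group and lines their means. After anti-GPIba (green) Ccl2, Ccl6, Ccr2, Ccr1 and Cxcr2 lie below both IgG low-flow pools (red), after anti-Gr1 (purple) Cxcr2 does so by far while Ccl2 and Ccl6 overlap, and Cxcl1 lies above both IgG low-flow pools after anti-GPIba.

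The remaining ligands and receptors of this class had low levels. Ccl3, which binds Ccr1, was at 3.57 and 1.63 with low and 0 in both high-flow pools after IgG, at least 7.23-fold higher against a floor of 3 counts per library, and at 0.175 and 0.343 after anti-GPIba (adjusted p = 0.0457; 0.162 to 0.245 without 1 pool). Ccl12, a Ccr2 ligand of the mouse, reached 6.79 FPKM in sham pool I and was called in no comparison by edgeR. Ccl17 and Ccl22, which dendritic cells make and which bind Ccr4, reached 6.16 and 5.06 FPKM. Ccl17 was higher with low flow after both IgG and PBS liposomes, where its high-flow pools had no reads, but lost both calls without any 1 of the pools (adjusted p 0.0575 to 0.184). Ccr3, the eosinophil receptor, had no read in the high-flow pools after IgG or PBS liposomes and none after anti-GPIba, against 0.66 and 0.386 FPKM with low flow after IgG and 0.114 and 0.771 after PBS liposomes, and was called in all 3 comparisons, at least 7.04-fold, 6.45-fold and 9.74-fold. Ccr4, the receptor of Ccl17 and Ccl22, stayed under 0.75 FPKM in every artery.

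Among the CXC ligands, those of neutrophils differed in their calls. Cxcl1, the most abundant of them and a ligand of Cxcr2, was at 51.2, 26.6 and 93.7 FPKM with low flow, 108, 96.1 and 82.6 with high flow and 111, 88.2 and 76.3 in sham arteries. Low flow overlapped with both other groups, and it was not called against high flow (log2 fold change -0.15, SE 0.24, adjusted p = 0.615) or sham (adjusted p = 0.88). Cxcl2, a close relative of Cxcl1, was at 7.68, 8.4 and 15.9 with low flow, 4.5, 4.89 and 4.93 with high flow and 10.6, 1.57 and 5.67 in sham arteries and was higher with low than high flow without overlap (log2 fold change 1.78, SE 0.25, adjusted p = 0.000215; 0.101 with library totals alone). Cxcl5 was at 1.95, 1.49 and 3.95 with low flow, 0.311, 0 and 0 with high flow and 1.26, 1.47 and 2.3 in sham arteries and was called against high flow, where 2 reads against 64 are a ratio of 28.1 (95% interval 7.48 to 237) in counting error. Cxcl3 was at 1.19, 2.33 and 3.43 with low flow, 0, 0 and 0 with high flow and 1.09, 0 and 1.65 in sham arteries and did not pass the filter.

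Cxcl1, Cxcl2 and Cxcl3 lie in the cluster on chromosome 5, and their promoters share a run of letters of the kind bound by NF-kappa B, which drives chemokine genes in inflammation. The letters GGG, then any 2 bases, then TTTCC were searched on both strands from 250 bases before to 50 after each RefSeq start (GRCm38.p6), a motif chosen after the values were seen. They were found in 535 of 32851 promoters (1.63%), which belong to 512 of 27025 genes (1.89%), and in 5 of the 34 member genes with an entry, namely these genes, Ccr3 and Ccl9. The windows are shown because Cxcl1, which was not called with low flow at 48 hr, and Cxcl2 and Cxcl3, which were called in at least 1 flow comparison, hold the same 10 letters, in capitals, within 100 bases of the start:
Cxcl1 (chr5:90891164-90891193, plus strand): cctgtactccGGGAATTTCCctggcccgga
Cxcl2 (chr5:90903792-90903821, plus strand): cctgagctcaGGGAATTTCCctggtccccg
Cxcl3 (chr5:90786018-90786047, plus strand): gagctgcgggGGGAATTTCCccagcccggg
The match begins 71, 97 and 73 bases before the start. Cxcl1 and Cxcl2 hold another match each, which begins 89 and 78 bases before it. A match is a description of the letters and says nothing on binding.

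Cxcr2, the neutrophil receptor of these ligands, had the largest log2 fold change of the members in untreated arteries. It was at 12.2, 19.2 and 16.6 FPKM with low flow, 0.243, 0.283 and 0.152 with high flow and 0.164, 0.764 and 1.55 in sham arteries. The low-flow pools were 113-fold above high flow (log2 fold change 6.82, SE 0.44, adjusted p = 2.11e-06) and 32.3-fold above sham (log2 fold change 5.01, SE 0.55, adjusted p = 0.00123), and far from overlap. After IgG it was at 27.2 and 7.79 with low and 0 and 0.203 with high flow, and after PBS liposomes at 6.25 and 23.7 against 0.0498 and 0.171. After anti-Gr1 it was at 0.782 and 0.307, 31.6-fold below IgG and below both of its pools (unadjusted p = 0.000756, adjusted p = 0.243; 0.0126 in a fit of these 4 pools alone). It was at 0 and 0.153 after anti-GPIba (222-fold lower, adjusted p = 0.0146; 0.0266 to 0.114 without 1 pool) and at 1.02 and 1.45 after clodronate (adjusted p = 0.186).

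No ligand of Cxcr2 was called after anti-Gr1. Cxcl1 was at 65.8 and 28.7 FPKM with low and 37.4 and 22.9 with high flow after IgG, at 70.2 and 83.4 after anti-GPIba and at 93.4 and 42.5 after anti-Gr1. It was at 66.5 and 63.7 with low and 39.3 and 44.8 with high flow after PBS liposomes and at 157 and 59.9 after clodronate. It was called in none of these comparisons, although both anti-GPIba pools lay above both IgG pools and both PBS low-flow pools above both PBS high-flow pools. Cxcl2 was at 13.2 and 4.75 against 1.04 and 0.704 after IgG, 4.88 and 3.42 after anti-GPIba, 4.83 and 5.68 after anti-Gr1, 10.3 and 9.74 against 2 and 2.57 after PBS liposomes and 12.1 and 4.78 after clodronate. It rose with low flow after IgG (log2 fold change 3.27, SE 0.62, adjusted p = 0.00299) and PBS liposomes (log2 fold change 2.24, SE 0.58, adjusted p = 0.0124; 0.103 without high-flow pool 1).

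Cxcl3 had no read in the 4 treated high-flow pools and in both anti-GPIba pools, against 7.47 and 0.544 FPKM with low flow after IgG and 4.51 and 8.01 after PBS liposomes. These differences are at least 15-fold, 25.3-fold and 20.7-fold, and all 3 comparisons called it (adjusted p = 0.0102, 0.00703 and 0.0285). It was at 3 and 3.07 after anti-Gr1 and 0.385 and 0.794 after clodronate. Without high-flow pool 1 of PBS liposomes its adjusted p was 0.0534, and without IgG pool 1 or either anti-GPIba pool it was 0.061 to 0.156. Cxcl5 was at 2.05 and 2.61 against 0 and 0 after IgG, 3.46 and 2.08 against 0 and 0.235 after PBS liposomes, 0.225 and 0.586 after anti-GPIba, 4.84 and 9.29 after anti-Gr1 and 3.45 and 0.457 after clodronate, higher with low flow in both controls.

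At 7 d Cxcr2 was at 0.104, 24.1 and 1.47 FPKM in low-flow controls, 0.234 and 0.092 in high-flow controls, 0.074, 2.49 and 0.597 in low-flow EC-KO and 0.306 and 0.0768 in high-flow EC-KO pools, so that control 4 alone held most of it. Neutrophil markers summed to 28.1, 174.7 and 11.7 FPKM in low-flow and 18.4 to 22.8 in high-flow controls. In EC-KO mice they summed to 7.76, 13.9 and 6.22 with low and 2.58 to 12.7 with high flow, and their part was not tested. Cxcl2 was at 3.08, 4.25 and 3.41 in low-flow against 3.47 and 3.69 in high-flow controls, and 4.8, 32.6 and 11 against 1.75 and 4.74 in EC-KO mice, Cxcl3 at 0, 3.43 and 2.12 in low-flow against 0 and 0 in high-flow controls, and 0, 0 and 0.332 against 0 and 0 in EC-KO mice, and Cxcl5 at 0.319, 0.433 and 2.12 in low-flow against 0.0449 and 0 in high-flow controls, and 0.32, 1.56 and 1.19 against 0 and 0.221 in EC-KO mice. Cxcl1 was at 43.5, 17.9 and 16.5 in low-flow and 46.9 and 77.6 in high-flow controls, and at 45.3, 64.3 and 118 against 47.3 and 89.4 in EC-KO mice. The low-flow controls of Cxcl1 lay below both high-flow controls (adjusted p = 0.139; 0.016 without low-flow control 1). The low-flow EC-KO pools of Cxcl1 and of Cxcl2 lay above all low-flow controls, by 2.97-fold and 4.64-fold, with unadjusted p of 0.0084 and 0.0111 in edgeR's quasi-likelihood test and an adjusted p of 0.692.

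Cx3cl1, the membrane-bound ligand that the endothelium itself makes, and its receptor Cx3cr1, on patrolling monocytes and macrophages, both rose with low flow. Cx3cl1 was at 4.66, 4.73 and 11.8 FPKM with low flow, 2.9, 3.61 and 3.23 with high flow and 6.88, 4.35 and 9.56 in sham arteries. Cx3cr1 was at 3.82, 4.51 and 9.2 with low flow, 0.131, 0.0458 and 0.492 with high flow and 0.595, 0.892 and 1.2 in sham arteries. The ligand was 3.25-fold higher than with high flow (log2 fold change 1.70, SE 0.21, adjusted p = 8.88e-05; 0.0756 with library totals alone) but overlapped with sham, and the receptor 41.3-fold higher (log2 fold change 5.37, SE 0.45, adjusted p = 7.15e-06) and 10.0-fold higher than sham (log2 fold change 3.32, SE 0.27, adjusted p = 0.000974).

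Cx3cl1 was at 44.5 and 43.9 FPKM with low flow after IgG and at 26.3 and 17 with high flow, and at 34 and 37.4 against 22.3 and 52.9 after PBS liposomes. EdgeR called neither change, and DESeq2 called that after IgG. It was at 63.6 and 60.2 after anti-GPIba, 86.3 and 103 after anti-Gr1 and 95.5 and 56.3 after clodronate, so every depleted pool lay above its controls. The unadjusted p in edgeR's test was 0.0103 for anti-Gr1 and 0.0204 for clodronate (adjusted p = 0.243 and 0.276) and 0.232 for anti-GPIba. Cx3cr1 was at 7.38 and 6.04 against 0 and 0.143 after IgG, and at 4.01 and 4.63 against 0.121 and 0.673 after PBS liposomes, higher with low flow in both (log2 fold change 6.36, SE 1.13, adjusted p = 0.00221 after IgG). It was at 1.58 and 0.463 after anti-GPIba (adjusted p = 0.0525; 0.00494 with DESeq2), 10.3 and 4.57 after anti-Gr1 and 0.131 and 0.347 after clodronate (adjusted p = 0.127).

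At 7 d Cx3cl1 was at 85.5, 56.9 and 47.1 FPKM in low-flow and 29.9 and 31.7 in high-flow controls, and at 127, 108 and 113 against 39.2 and 34.7 in EC-KO mice. Cx3cr1 was at 5.11, 5.78 and 2.35 in low-flow against 0.189 and 0 in high-flow controls, and 19.4, 12.8 and 15.4 against 0.0353 and 0.155 in EC-KO mice. For both genes each low-flow EC-KO pool lay above each low-flow control, by 1.88-fold and 3.68-fold. Neither was called over all genes (adjusted p = 0.692 for each; unadjusted p = 0.00162 and 0.0115, edgeR's quasi-likelihood test). Without low-flow control 1, edgeR called Cx3cl1 (adjusted p = 0.00962).

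Between EC-KO and control low-flow pools, edgeR's test called 0 of 37 members (0% of all genes), 6 had an unadjusted p under 0.05, all higher in EC-KO (Cx3cl1, Cx3cr1, Cxcl1, Cxcl16, Cxcl2 and Cxcl9; 6.59% of all genes had such a p), and DESeq2 called 0 (0.0688% of all genes). Without low-flow control 1, 3 were called (Cx3cl1, Cxcl1 and Cxcr7, all higher). With high flow 0 of 37 were called (0.00749% of all genes); Cxcl10 and Ccr8 reached an unadjusted p under 0.05 (2.19% of all genes), and by DESeq2 Cxcl10 was called (0.169%). The difference of the flow effect between genotypes was called for 0 of 37 (0% of all genes), with 3 at an unadjusted p under 0.05 (Ccr4, Ccr8 and Cxcl10; 4.03% of all genes) and 0 by DESeq2 (0.119%). Fibroblast markers summed to 91.1 to 386 FPKM in low-flow controls and 439 to 1491 in low-flow EC-KO pools, macrophage markers to the values given above, and their part was not tested.

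**Figure D4:**
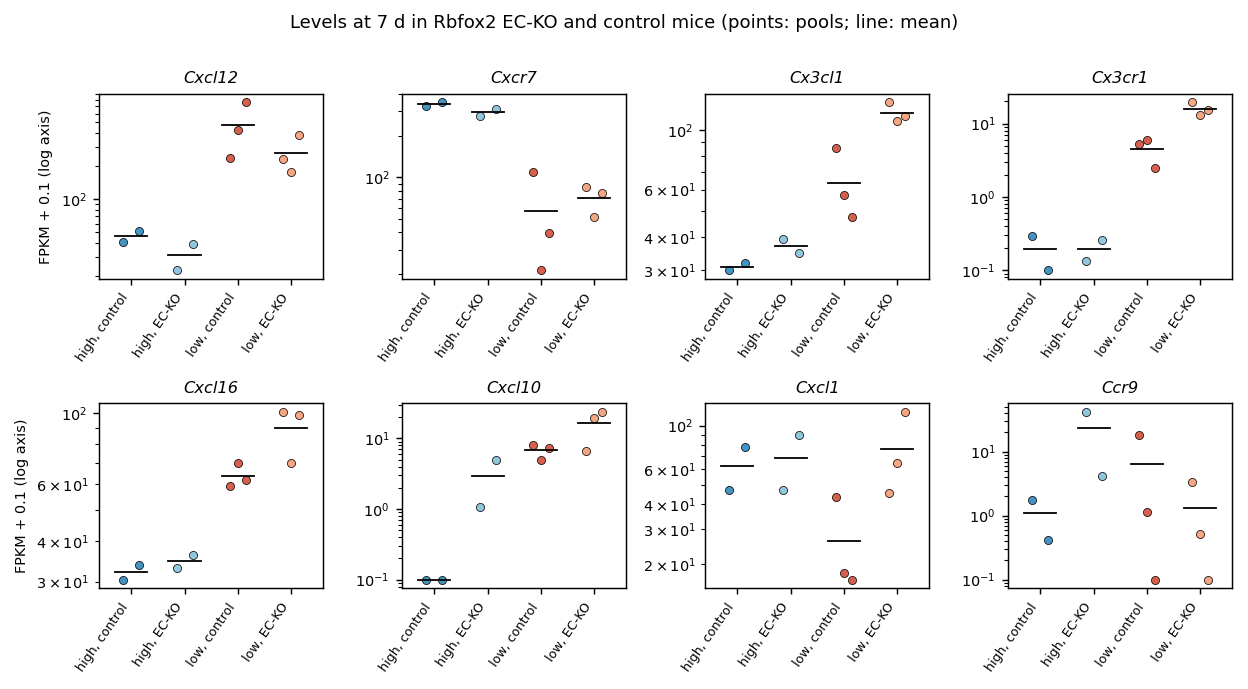
FPKM, with 0.1 added, on a log axis, of 8 members at 7 d in high-flow (blue) and low-flow (red) pools of control and Rbfox2 EC-KO mice; points are pools and lines are means. The low-flow EC-KO pools of Cx3cl1 and Cx3cr1 lie above all low-flow controls, and Ccr9 is high in 1 low-flow control and 1 high-flow EC-KO pool.

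Cxcl16, another membrane-bound ligand, which also takes up oxidized lipids, was at 34.4, 38.5 and 79.4 FPKM with low flow, 37.6, 32.7 and 27 with high flow and 42.2, 31.9 and 56 in sham arteries. It was called as higher than with high flow (log2 fold change 1.25, SE 0.20, adjusted p = 0.000608) though low-flow pool A lay below high-flow pool D, and not with library totals alone (0.182). Its exons share 1571 bases with Zmynd15 on the other strand (chr11:70267485-70273486 on mm9), and the counting is not stated to use strand, so reads of the genes cannot be told apart. After IgG it was at 92.3 and 93.4 against 21.7 and 23.1 (log2 fold change 1.97, SE 0.30, adjusted p = 0.00116), and after PBS liposomes at 80.2 and 85.6 against 29.8 and 59.7 (log2 fold change 1.00, SE 0.29, adjusted p = 0.0199; 0.168 without high-flow pool 1). It was at 76 and 82.4 after anti-GPIba, 116 and 141 after anti-Gr1 and 100.1 and 71.1 after clodronate. Both anti-GPIba pools lay below and both anti-Gr1 pools above the IgG pools, by less than 2-fold, and no change was called (adjusted p = 0.53, 0.368 and 0.938).

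At 7 d Cxcl16 was at 59.2, 69.9 and 61.8 FPKM in low-flow and 30.3 and 33.7 in high-flow controls, and at 101, 70.0 and 98.6 against 33 and 36.1 in EC-KO mice. Low flow was above high flow without overlap in each genotype (adjusted p = 0.0521 in controls and 0.0201 in EC-KO mice). Cxcr6, its receptor on T and NK cells, stayed at or under 1.97 FPKM in every artery and was called nowhere.

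Cxcl9 and Cxcl10, which interferons induce and which bind Cxcr3 on T cells, were lower with low flow than in sham arteries. Cxcl10 was at 1.12, 1.22 and 2.67 FPKM with low flow, 0, 0.357 and 0.479 with high flow and 5.93, 7.23 and 4.01 in sham arteries. Cxcl9 was at 0.266, 0.245 and 0.509 with low flow, 0.68, 0.713 and 0.718 with high flow and 2.49, 2.41 and 0.816 in sham arteries. Sham arteries lay above low flow in both genes without overlap (log2 fold change -1.10, SE 0.34, adjusted p = 0.0327 for Cxcl10 and log2 fold change -1.77, SE 0.50, adjusted p = 0.0228 for Cxcl9). Both calls were lost without pool A, B, C, G or H, with adjusted p of 0.0591 to 0.124, and that of Cxcl10 also with DESeq2 (0.109) and without the filter on low counts (0.0582). Cxcl10 shares 133 exonic bases with Art3 on the other strand.

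Their levels varied widely between pools of a group. Cxcl10 was at 5.55 and 1.43 FPKM against 0.443 and 0 after IgG, 5.49 and 5.13 against 0.393 and 12.4 after PBS liposomes, 2.1 and 0.903 after anti-GPIba, 39.7 and 6.77 after anti-Gr1 and 29.1 and 1.95 after clodronate. Cxcl9 was at 0.176 and 0 against 0 and 0 after IgG, 0.151 and 0.529 against 0 and 0.874 after PBS liposomes, 0.451 and 0 after anti-GPIba, 1.77 and 0.506 after anti-Gr1 and 0.485 and 0 after clodronate. At 7 d Cxcl10 was at 7.94, 4.9 and 7.17 in low-flow controls and had no read in either high-flow control, at least 26.1-fold higher (adjusted p = 0.027; 0.0526 to 0.231 without any 1 of low-flow control 4 or 5 or the high-flow controls). In EC-KO mice it was at 6.48, 19.3 and 23.8 with low flow and 0.964 and 4.78 with high flow. Cxcl9 was at 0.437, 0.289 and 0.14 against 0.197 and 0 in controls and 1.46, 1.38 and 3.68 against 0.0229 and 0.867 in EC-KO mice, where every low-flow EC-KO pool lay above every low-flow control. Cxcr3 was higher with low flow after IgG, with no read in either high-flow pool against 0.829 and 1 FPKM (at least 5.78-fold), and after PBS liposomes (adjusted p = 0.0245; 0.0496 to 0.165 without 1 pool).

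At 7 d edgeR's fit without a block called none of the CC ligands and receptors in either genotype. DESeq2 called Ccl4, Ccl6, Ccl9, Ccr1 and Ccr2 as higher with low flow in both (13.7% of all genes were called in controls and 5.93% in EC-KO mice). Ccl2 was at 0.182, 7.13 and 5.71 FPKM in low-flow and 1.33 and 0 in high-flow controls, and at 4.13, 11.9 and 6.97 against 0.764 and 0.588 in EC-KO mice. Ccl7 was at 0.646, 3 and 0.148 in low-flow against 0.624 and 0.272 in high-flow controls, and 0.822, 18.3 and 2.32 against 0.678 and 1.45 in EC-KO mice, and Ccl6 at 18, 87.9 and 20.8 in low-flow against 6.52 and 1.86 in high-flow controls, and 15.7, 52 and 27.3 against 2.79 and 5.69 in EC-KO mice. Low flow lay above high flow for Ccl6 in each genotype, and overlapped with it for Ccl2 in controls and for Ccl7 in both genotypes. Ccl9 was at 3.05, 23.8 and 4.53 in low-flow against 1.04 and 0.496 in high-flow controls, and 5.49, 18.6 and 7.45 against 0.53 and 1.65 in EC-KO mice. Ccl5 was at 6.23, 2.44 and 1.5 in low-flow against 0.701 and 0 in high-flow controls, and 6.23, 4.4 and 8.74 against 5.55 and 1.29 in EC-KO mice, and Ccl4 at 1.17, 4.93 and 1.13 in low-flow against 0 and 0 in high-flow controls, and 2.39, 0.943 and 1.81 against 0 and 0 in EC-KO mice. Ccl4 thus had reads in all 6 low-flow pools and in none with high flow.

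Ccr2 at 7 d was at 4.13, 47.4 and 11.2 FPKM in low-flow and 0.867 and 1.21 in high-flow controls, and at 8.41, 42.2 and 17.9 against 0.753 and 0.42 in EC-KO mice. Ccr1 was at 1.41, 40.6 and 3.43 in low-flow against 0.101 and 0.562 in high-flow controls, and 5.69, 8.7 and 5.5 against 0.424 and 0.124 in EC-KO mice. Both receptors were higher with low flow without overlap, and not called in edgeR's test (adjusted p from 0.0634, Ccr2 in controls, to 0.176, Ccr1 in EC-KO mice).

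The homeostatic ligands of skin and lymphoid tissue had few calls. Ccl27a, a skin chemokine, was at 2.09, 3.65 and 6.4 FPKM with low flow, 14.7, 9.71 and 17.8 with high flow and 15.5, 10.3 and 10.2 in sham arteries, and was 2.28-fold lower than with high flow (log2 fold change -1.19, SE 0.37, adjusted p = 0.0233; 0.0634 with DESeq2; lost without pool A, D or F, as given above). In treated arteries it was at 3.44 and 3.62 against 1.81 and 3.27 after IgG, 3.01 and 4.66 against 2.78 and 2.44 after PBS liposomes, 6.19 and 11 after anti-GPIba, 6.51 and 3.86 after anti-Gr1 and 5.82 and 3.49 after clodronate, and no change was called. At 7 d it was at 7.16, 0.735 and 2.16 in low-flow against 6.46 and 7.38 in high-flow controls, and 4.35, 0.986 and 3.21 against 7.03 and 6.86 in EC-KO mice. The gene shares 13 exonic bases with Il11ra1 and like Ccl19 lies in a duplicated region of chromosome 4 with near-identical copies, so the levels of both are uncertain.

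Ccl19, a ligand of Ccr7 that guides T cells and dendritic cells, was at 0.766, 1.17 and 6.7 FPKM with low flow, 2.85, 6.27 and 3.82 with high flow and 13.2, 5.12 and 7.11 in sham arteries, with no call. It was at 4.53 and 4.19 against 1.27 and 0.382 after IgG and at 2.47 and 1.36 against 0.251 and 0.123 after PBS liposomes, higher with low flow in both (adjusted p = 0.0446 and 0.0199). These calls were lost without most of the pools (up to 0.18). It was at 2.95 and 6.72 after anti-GPIba, 2.75 and 6.06 after anti-Gr1 and 3.37 and 1.68 after clodronate. At 7 d it was at 1.57, 4.67 and 0.336 in low-flow against 0.589 and 0.925 in high-flow controls, and 0.0931, 0.986 and 0.625 against 0.11 and 0.386 in EC-KO mice. Ccl25, the thymic ligand of Ccr9, stayed between 0 and 4.23 FPKM in the arteries and Cxcl13, the B cell ligand, at or under 3.21, and edgeR called neither.

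The receptors Ccr7, Ccr8 and Ccr9 were high in single pools. Ccr9, of thymocytes and gut T cells, was at 1.24, 9.93 and 1.7 FPKM in the sham pools, 18, 1.04 and 0 in the low-flow and 1.66 and 0.317 in the high-flow controls at 7 d, and 3.21, 0.424 and 0 against 41.9 and 4.02 in EC-KO mice. Ccr7 reached 10.9 and Ccr8 2.31 FPKM in high-flow EC-KO pool 4. The 8 T and NK cell markers summed to 106.7 FPKM in sham pool H, 185.6 in low-flow control 1 and 365.8 in high-flow EC-KO pool 4, and to 46.4 or less in every other artery library. The part of T cell RNA in these levels was not tested. Ccr9 shares 66 exonic bases with Slc6a20a on the other strand.

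Ccl11, an eosinophil ligand of Ccr3 made by fibroblasts and muscle, was at 0.158, 0.242 and 3.02 FPKM with low flow, 2.02, 7.07 and 5.69 with high flow and 5.87, 6.09 and 5.51 in sham arteries. It was lower than in sham (log2 fold change -1.77, SE 0.56, adjusted p = 0.035; 0.0512 to 0.104 without pool A, B, G, H or I). Fibroblast markers summed to 18.2 to 138 FPKM with low flow, where pool C had the most of both, and 136 to 189 in sham arteries, and their part was not tested. It was at 3.4 and 2.04 against 3.15 and 2.93 after IgG, 1.53 and 1.15 against 2.95 and 3.21 after PBS liposomes, 4.69 and 20.8 after anti-GPIba, 7.2 and 3.83 after anti-Gr1 and 4.32 and 1.11 after clodronate. Anti-GPIba pool 2, with the most Ccl11 of these, also had the most fibroblast marker RNA of the treated pools (475.3 FPKM). At 7 d it was at 8.57, 5.86 and 2.09 in low-flow against 6.29 and 2.2 in high-flow controls, and 2.19, 1.66 and 5.12 against 2.32 and 4.97 in EC-KO mice, with overlap of all groups. Ccl8, a monocyte and T cell ligand, was the highest in sham pool I (32.5 FPKM), and edgeR called it in no comparison, while DESeq2 called it as lower with low flow than in sham and as higher with low than high flow after PBS liposomes. Ccl24, another Ccr3 ligand, stayed at or under 2.68 FPKM in the arteries.

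Darc, the erythrocyte and venule receptor that holds many chemokines, was near the limit of detection: 0.58, 1.11 and 0 FPKM with low flow, 0, 0.324 and 1.52 with high flow and 0, 0 and 0.202 in sham arteries. In the treated pools it was between 0 and 0.777, and at 7 d at 0.119, 0 and 0 against 0 and 0 in controls and 0.212, 5.12 and 0.426 against 0.25 and 0 in EC-KO mice. Low-flow EC-KO pool 4 alone stood out. Xcr1, of cross-presenting dendritic cells, stayed at or under 0.799 FPKM, Ccr1l1, a relative of Ccr1, at or under 1.12, and Cxcl15 at or under 0.341 in the arteries, so that these 3 and Ccr4 were at or near the limit of detection in most pools.

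The cultures had 1 library each and no test. In the cell line Cxcl12 was by far the highest member, at 5418 FPKM untreated, 4226 after plasma, 5073 after platelets with macrophages, and 2624 after all 3. A member counts as past the fold here if its CPM, with 0.5 added to each, differs 2-fold or more from the untreated culture and the higher library has at least 10 counts. With plasma alone, 1 of 13 members measured was higher (Ccl9; 4.46% of all genes) and 3 lower (Ccl2, Cx3cl1 and Cxcl15; 6.51%), and Ccl7 was 2.22-fold lower only without the added value. With platelets and macrophages, 15 of 21 were higher (4.84%) and none lower (5.41%). With all additions, 15 of 23 were higher (8.15%) and 3 lower (Cx3cl1, Cxcl12 and Cxcl15; 11.8%).

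The monocyte ligands Ccl2 and Ccl7 were at 6.9 and 4.39 FPKM untreated, 2.81 and 1.97 when plasma was added, 45.8 and 31.7 when platelets with macrophages were added, and 87 and 97.1 when all were added. Cxcl1 was at 15.5, 9.18, 120.2 and 170.2 in the same order, and Cxcr7 at 2.38, 2.47, 6.66 and 18.2. These 4 genes were highest with all additions, and all but Cxcr7 were lowest with plasma alone. Ccl6, a myeloid gene with 1 read in the untreated culture, was at 9.8 FPKM when platelets with macrophages were added and 120.2 when all were, and Cxcl3, with no read, at 0.0819 and 19.9 (at least 84.7-fold with all additions). With plasma alone Ccl6 was at 0.166 and Cxcl3 at 0. Cx3cl1 was at 29.5, 9.38, 25.3 and 5.78, lowest with all additions. Cxcl10 was at 24.6, 49.2, 57.1 and 26.2, Cxcl16 at 47.1, 32.7, 95.9 and 45.9 and Ccl5 at 30.6, 44.5, 38 and 55.7 in the same order. Ccl9 was at 0.429, 4.82, 6.71 and 12.9 and Cxcl2 at 0.363, 0.305, 2.35 and 2.6, and both were highest with all additions. Cxcl5 was at 0, 0.0474, 0.471 and 1.01, Ccl4 at 0, 0.277, 0.276 and 1.89 and Ccl27a at 5.66, 4.35, 2.97 and 2.96. The receptors were low, with Ccr1 at 0.0254, 0.0266, 0.848 and 2.7, Ccr2 at 0, 0.0208, 0.516 and 1.24, Cx3cr1 at 0, 0.02, 0.695 and 0.017, Cxcr2 at 0, 0, 0.0491 and 0.147 and Cxcr4 at 0.163, 0, 0 and 0.073. Ccl19, Cxcl9 and Darc had no read in the 4 cultures, and Ccl11 had 1 read, with plasma alone (0.077 FPKM). Cxcl15, the lungkine of the mouse, was at 6.57 untreated and 0.154 with all 3. The methods describe lysis of these cultures in the plate, with no step that removes the added cells. Macrophage markers summed to 28.7 FPKM untreated, 53.9 after plasma, 392 after platelets with macrophages, and 274 after all of them, and their part in these values was not tested.

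**Figure D5:**
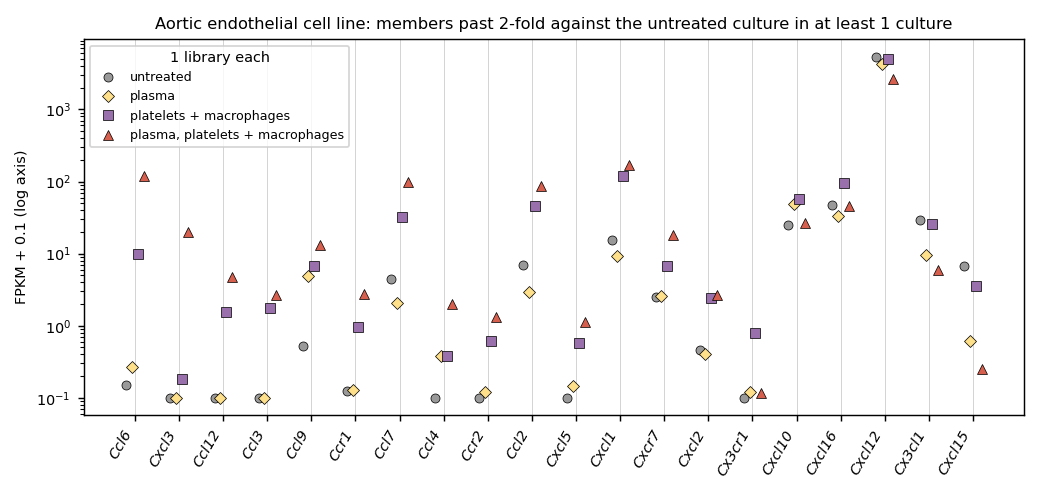
FPKM, with 0.1 added, on a log axis, in the 4 cultures of the aortic endothelial cell line, for members 2-fold or more from the untreated culture (grey) in at least 1 other; each symbol is 1 library. Ccl6, Ccl7, Ccl2 and Cxcl1 are highest with plasma, platelets and macrophages (red), while Cx3cl1 and Cxcl15 are lowest there and Cxcl12 leads in every culture.

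The primary cells had 1 library each, of which the eGFP+ one was read at 100 bp and the others at 150 bp, so its FPKM are not compared with theirs. Cxcl12 was at 1043 FPKM in control, 964 in Rbfox2 EC-KO and 600.5 in eGFP+ cells, and Ccl2 at 275, 342 and 199. Smooth muscle markers summed to 3480 FPKM in control, 2768 in EC-KO and 1633 in eGFP+ cells, and their part was not tested. Of 14 members measured, none was 2-fold higher by the same rule in EC-KO than control cells (4.84% of all genes; Cxcl10 was 2.12-fold higher only without the added value) and 6 were lower (5.31%): Ccl6, Ccl7, Ccr1, Cxcl2, Cxcl5 and Cxcr7. Cxcr7 was at 53 in control, 23.7 in EC-KO and 58.8 in eGFP+ cells, and Cxcl2 at 18.1, 8.26 and 13.2. In the same order Cxcl1 was at 40.1, 41.1 and 100.3, Cxcl16 at 75.7, 72.9 and 78.8, Cx3cl1 at 27.1, 38.1 and 8.93 and Cxcl10 at 0.673, 1.42 and 3.29. Ccl5 was at 0, 0 and 11, Ccl6 at 1.44, 0.0779 and 0.161, Ccl7 at 4.73, 1.54 and 0.478 and Ccl9 at 0.192, 0.211 and 0. Ccl27a was at 0.695, 0.612 and 6.29, Cxcl3 at 0.079, 0 and 0, Cxcl5 at 0.955, 0 and 2.55, Ccr1 at 0.486, 0 and 0, Cxcr2 at 0, 0 and 0.0359 and Cxcr4 at 0.576, 0.543 and 1.19. Ccl4, Ccl11, Ccl19, Ccr2, Cx3cr1, Cxcl9 and Darc had no read in the primary cells. Macrophage markers summed to 382 FPKM in the control and 52 in the EC-KO culture, although the methods describe a sort on endothelial surface markers before RNA was taken, and their part in this was not tested.

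Of 7 chemokines and receptors with other symbols, 6 were tested in untreated arteries, and 4 were lower with low than high flow (22.6% of all genes) and none higher (23.6%): Ccrl1, Ccrl2, Cmklr1 and Rarres2. Cmklr1, the chemerin receptor, was at 0.549 FPKM against 10.4 on average (log2 fold change -3.52, adjusted p = 7.48e-05). Pf4, the platelet and macrophage chemokine, was higher with low flow after IgG (31.4 against 3.68 FPKM) and PBS liposomes (32.2 against 5.46). In untreated arteries Pf4 was not called, at 11.6, 11.7 and 62.8 FPKM with low and 11.6, 35.5 and 38.7 with high flow. Ppbp fell after anti-GPIba (0.298 against 6.79 FPKM). Of 10 inducers, 5 were tested in untreated arteries and Il1b alone was called, as higher, at 79.5 against 0.875 FPKM (log2 fold change 7.19, adjusted p = 1.52e-06). Il1b was at 0.593 FPKM after anti-GPIba against 117.9 after IgG (adjusted p = 0.00982).

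Of 17 genes that carry or end the receptor signal, 15 were tested in untreated arteries, and 8 were higher (23.6% of all genes) and 2 lower (22.6%) with low flow. The higher ones include Rac2 and Vav1 of leukocytes (log2 fold changes 4.64 and 4.41), and the lower ones were Arrb1 and Grk6, which desensitize receptors. Arrb2, a relative of Arrb1, and Rgs2, which ends G protein signals, were higher (log2 fold changes 1.67 and 2.66). After anti-GPIba 6 of the 17 fell (10.5% of all genes), among them Rac2 (2.07 against 22.4 FPKM). Of 10 genes that cut or present chemokines, 2 of 9 tested were higher with low flow in untreated arteries (Mmp9 and Sdc4) and 1 lower (Ext1), beside 23.6% and 22.6% of all genes. Adam10 and Adam17, the proteases that shed Cx3cl1 and Cxcl16 from the cell surface, were lower with low flow after IgG and PBS liposomes (log2 fold changes from -1.80 to -0.95), and not called in untreated arteries.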

How the data were processed

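RNA of intima and cultures was amplified with a SMARTer kit and sequenced without molecular identifiers. The authors aligned the reads to mm9 with STAR 2.5.1b and deposited an expected count per gene from RSEM 1.2.15, with 1 effective length per gene. Of the columns of values, 159 were not used, namely 23 of counts and all those of TPM and RPKM. The members and lists were chosen with earlier results of these data known.

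Expected counts were rounded and tested with edgeR 4.0.16 (filterByExpr, TMM, quasi-likelihood test, Benjamini-Hochberg over all genes tested, adjusted p under 0.05) in R 4.3.3. Each pair of untreated groups was fitted alone, and the 7 treated groups and the 4 groups of 7 d were fitted together. The scripts were tested on simulated data. Every member over the level rule is named except 1, which is counted with the others but not reported here. Values in every sample are given for members with a mean of at least 5 CPM in an artery group and a call, and for 9 best known for leukocyte adhesion. Alternatives were DESeq2 1.42.0, other scaling factors, no filter, a replicate block, only the groups compared, and each library left out. Labels do not say that pools are independent beyond being separate samples, so p-values measure the spread between these pools. Replicate pools differed by more than sampling noise. At 7 d, low-flow control and EC-KO pools with the same number in the column names correlated at 0.483, 0.172 and 0.293 for numbers 1, 4 and 5. The highest correlations with another number were -0.102, 0.107 and -0.0525. The labels do not say what a number stands for, and both pools numbered 1 share a sequencing run that no other 7 d pool has. All p-values given for that comparison come from fits without this pairing, and the replicate block gave 0 calls. Intervals and floors of 3 counts cover counting error only.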

Additional observations from a re-analysis of the deposited data

Results flagged for a closer look

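In 4 members every low-flow pool lay above every high-flow pool in one setting and below it in another, and these differences between settings were not tested. How many of all genes do so was not counted, so the 4 are a description and not a result about the members. With so few pools a group, pools can separate in this way without a change. Values are ratios of mean FPKM, low over high flow. FPKM are scaled by library totals, on which scale the median gene had a log2 fold change of -0.69 in untreated arteries and of -0.05 to 0.15 in the other settings. With TMM scaling the change in untreated arteries was -0.42 (SE 0.35) for Ccl25 and -1.19 (SE 0.37) for Ccl27a on the log2 scale, and Cxcl9 did not pass the filter there. Ccl25 had a ratio of 2.69 after PBS liposomes and 1.58 in controls at 7 d, against 0.482 in untreated arteries. Ccl27a, whose reads its near-identical copies may share, had 1.39 after IgG and 1.47 after PBS liposomes, against 0.287 in untreated arteries and 0.41 in EC-KO mice at 7 d. Cxcl1 had 1.55 after PBS liposomes and 0.417 in controls at 7 d. Cxcl9 had 4.88 in EC-KO mice at 7 d and 0.483 in untreated arteries.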

How the results depend on the processing

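Numbers are members called. For fits with a library left out, without the filter, with library totals alone or with only the groups compared, the share of all genes is not given here. A change in those counts can therefore not be read as particular to the members. Leaving out 1 library gave 16 to 20 for untreated low against high flow, 8 to 17 for low flow against sham, 0 to 2 for high flow against sham, 0 to 4 for anti-GPIba, 0 to 2 for clodronate, 19 to 21 after IgG, 8 to 16 after PBS liposomes, 0 to 14 and 0 to 1 for flow at 7 d in controls and EC-KO mice, 0 to 3 for EC-KO against control with low flow, and 0 for anti-Gr1. Without the filter on low counts, the counts were 28 for untreated low against high flow, 22 for low flow against sham, 2 for high flow against sham, 2 for clodronate and 7 for controls at 7 d. With DESeq2 they were 3 for high flow against sham, 1 for anti-Gr1, 5 for clodronate, 15 and 14 for flow at 7 d in controls and EC-KO mice and 1 for EC-KO against control with high flow. With only the groups compared in the fit they were 1 for anti-Gr1 and 0 and 10 for flow at 7 d in controls and EC-KO mice. Low- and high-flow pools at 7 d share only a number (same-number correlations over 2 pairs of 0.164 in controls and 0.00443 in EC-KO mice), and the replicate block gave 12 calls in controls (22% of all genes) and 13 in EC-KO mice (9.86%). For the genotype comparison with low flow it gave 0 calls, as without it. With the sequencing run as a block, chosen after seeing the data, 12 in controls and 6 in EC-KO mice (16.7% and 3.98% of all genes). The cause was not tested. The treated pools at 48 hr share only a number: same-numbered pools of the compared groups correlated at -0.0675 (anti-GPIba), 0.0911 (anti-Gr1), 0.471 (clodronate), -0.00603 (IgG) and 0.457 (PBS liposomes). In the same order the replicate block gave 16, 0, 0, 22 and 23 calls, beside 24.7%, 0%, 0.478%, 43.4% and 38.1% of all genes. For the untreated pools no paired analysis was possible because their names are letters. In the cultures a 4-fold threshold gave 2 with plasma, 9 with platelets and macrophages and 0 in primary cells, and a minimum of 30 counts gave 3 in primary cells. No called fold change of a named member changed sign, but with library totals alone the calls of low flow against sham went from 10 higher and 4 lower to 6 higher and 8 lower. The second runs of the untreated pools were not run as an alternative. Few reads in 1 group and 2 or 3 pools a group limit the precision.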
